A study of Mus musculus with 6 samples.

Results

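The steroid receptor coactivators and corepressors are proteins that nuclear receptors recruit to chromatin, and 9 genes encoding such proteins were looked up among the 19057 genes with a probe on the array: Ncoa1, Ncoa2, Ncoa3, Ncor1, Nrip1, Ppargc1a, Ppargc1b, Crebbp and Ep300. They were chosen by name and function, and every probe that the array annotation assigns to one of them was used. Of the 9 genes, 8 had at least 1 probe and together they had 18 probes. Ncor1, which encodes the corepressor NCoR, had no probe in the annotation used here and was not analysed. After a filter on dim probes, 8 probes of 6 genes were tested, and the other 10 probes did not pass it.

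The glucocorticoid receptor is a ligand-activated transcription factor, and with other nuclear receptors it changes transcription through partner proteins that do not bind DNA by themselves. Coactivators of the p160 family (Ncoa1, Ncoa2, Ncoa3) dock on the hormone-bound receptor and bring in the histone acetyltransferases CBP (Crebbp) and p300 (Ep300), whereas NCoR and RIP140 (Nrip1) bring in histone deacetylases and lower transcription. In adipocytes the PGC-1 coactivators (Ppargc1a, Ppargc1b) are known for driving mitochondrial and oxidative genes, and RIP140 is known for opposing that program.

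3T3-L1 cells are a mouse embryonic fibroblast line that becomes adipocyte-like in culture. The differentiated cells of both groups were kept for 24 hours in stripped serum, and then received either 500 nM DEX (dexamethasone, a synthetic glucocorticoid) or the same volume of ethanol as vehicle for 6 hours. Both groups had already met dexamethasone, together with methylisobutylxanthine and insulin, in the medium used to differentiate them. Each group had 3 MouseWG-6 BeadChip arrays of total RNA. By the Methods, each treatment was in triplicate and the arrays came from the same batch. Separate cultures for the triplicates are stated neither in the labels nor in the Methods. The spread that the p-values rest on, that between these samples, may thus be technical.

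Each array detected 15800 to 16523 probes, a detection p under 0.05 meaning that a probe was brighter than nearly all negative control beads, and the median bead signal was 91.9 to 96.8 (arbitrary fluorescence units). Log2 signals correlated at 0.974 to 0.994 between arrays of the same group and at 0.958 to 0.978 between groups across the 16317 tested probes. As a check of the treatment, Fkbp5, a co-chaperone gene known to be induced by glucocorticoids, rose 64.3-fold (adjusted p = 3.10e-07 from limma), Tsc22d3 (GILZ) rose 5.62-fold (adjusted p = 2.42e-05), and all 8 of the 8 glucocorticoid control genes passed as higher. This list was chosen with earlier results of these data known, so the count is not an independent check. Mt2, a metallothionein, and Lcn2, a secreted lipocalin, had the next largest rises of that list after Fkbp5, 20.2-fold and 19.4-fold (adjusted p = 4.88e-05 and 4.79e-04). The adipocyte label was checked against markers, and 7 of 8 adipocyte markers had a probe, all of them detected on every array. The summed signal of the adipocyte markers (normalized, linear scale) was 42600 to 45270 in vehicle and 46120 to 52480 in DEX. Such a sum is weighted to its brightest genes. Adipoq had a mean log2 signal of 14.42 in vehicle and 14.41 in DEX. For Cidec the means were 13.67 and 14.16, a difference that did not pass (adjusted p = 0.146 in limma). Of the 7 tested markers, 4 had positive and 3 negative log2 fold changes. Only 1 of them passed, the lipid droplet gene Plin1, which fell 2.04-fold (adjusted p = 0.00290). Of the 7 preadipocyte and fibroblast markers 6 were tested and 4 were detected on every array, with sums of 17680 to 19840 in vehicle and 15700 to 20890 in DEX, and none of the 6 passed. With each DEX array set against the vehicle array of the same number (the replicate block), 2 of them passed. These were Pdgfra with a log2 fold change of 0.63 (adjusted p = 0.0361, 0.0508 without the block) and Gata2 with -1.09 (0.00130, 0.119 without it). The brightest gene of this list, Dlk1, weighs most in its sums, with a mean log2 signal of 13.91 in vehicle and 13.81 in DEX. None of the 4 macrophage and 3 endothelial markers with a probe passed the filter on dim probes. The part of these marker levels in the values of the coregulators was not tested. In bulk RNA a lower share of cells of 1 type and less RNA per cell cannot be told apart.

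DEX lowered 1 of the 6 tested coregulator genes, Ppargc1a, and raised none at an adjusted p under 0.05 in limma. The PGC-1 genes had the most negative differences of the 6, a 2.42-fold fall of Ppargc1a and a log2 fold change of -0.85 for Ppargc1b, which did not pass. On the other side, Nrip1, Ep300, Ncoa3 and Crebbp had positive log2 fold changes of 0.73, 0.54, 0.20 and 0.18, and none of them passed. Among all 9144 tested genes, each judged by its brightest probe (the representative probe), 413 or 4.52% were called higher and 280 or 3.06% lower. At an unadjusted p under 0.05, 1 of the 6 coregulator genes was higher and 2 were lower, beside 10.0% and 11.9% of all tested genes. The median log2 fold change of the 6 genes was 0.19, against -0.06 for all tested genes, and 2 of the 6 were negative and 4 positive. The groups did not overlap for 3 of the 6 genes, Ppargc1a, Ppargc1b and Ep300, and for 2554 of all tested genes (27.9%). With the replicate number as a block, a fit that compares each DEX array with the vehicle array of the same number, Ep300 passed as higher and Ppargc1a and Ppargc1b as lower, beside 6.57% of all tested genes higher and 5.98% lower.

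**Figure D1:**
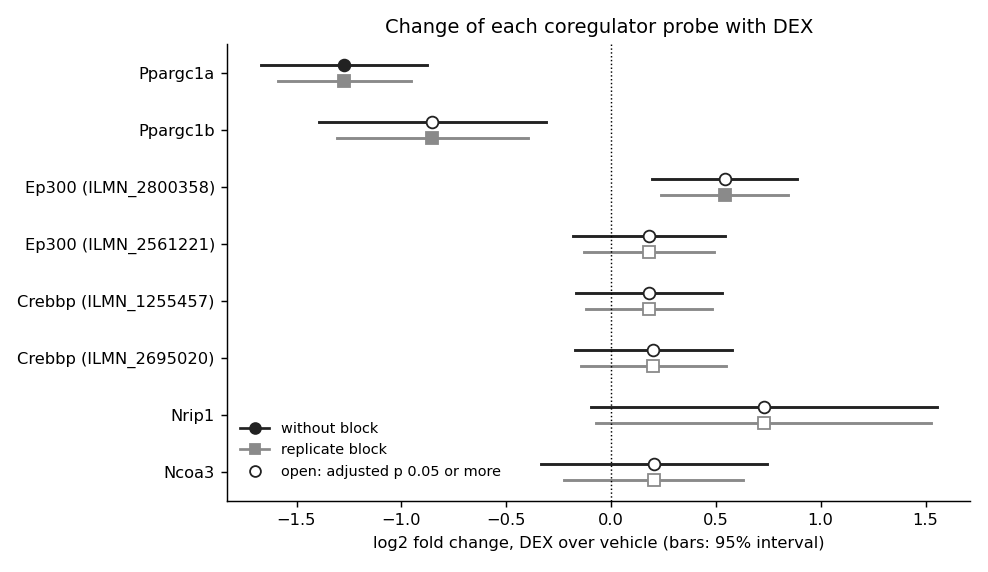
Log2 fold change of DEX over vehicle for each of the 8 tested coregulator probes, with bars for the 95% interval, from the fit without a block (black circles) and with the replicate block (grey squares). Open symbols have an adjusted p of 0.05 or more. Ppargc1a is filled in both fits, whereas Ppargc1b and Ep300 are filled only with the block.

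Ppargc1a encodes PGC-1 alpha, the inducible coactivator that partners PPARs, estrogen-related receptors and other factors in mitochondrial biogenesis and fatty acid oxidation. Its bead signal was 406, 301 and 348 on the 3 vehicle arrays and 203, 151 and 186 on the 3 DEX arrays. Every DEX array was dimmer than every vehicle array before any normalization, and the probe was detected on all 6. After background correction and quantile normalization the log2 signal was 8.21, 7.90 and 7.97 in vehicle and 6.96, 6.45 and 6.85 in DEX. The lowest vehicle array was still 0.94 above the highest DEX array on the log2 scale. The mean went from 8.03 ± 0.16 to 6.76 ± 0.27 (SD, n = 3 arrays each). Ppargc1a thus fell by 1.27 on the log2 scale (SE 0.18, 95% interval -1.67 to -0.88), 2.42-fold (1.84 to 3.18), with an adjusted p of 0.00224 in limma.

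The fall was of similar size in each numbered pair of arrays, with DEX minus vehicle differences of -1.25, -1.45 and -1.11. It passed under all 14 alternative settings, with adjusted p-values from limma between 2.19e-04 and 0.0182 and log2 fold changes between -1.38 and -0.88. Among the 16317 tested probes, 58 had a log2 fold change at least as low as that of Ppargc1a, itself included, and 290 had a p at least as small. The second Ppargc1a probe gave bead signals of 79.2 to 86.7 and was detected on no array, so the fall rests on 1 probe.

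**Figure D2:**
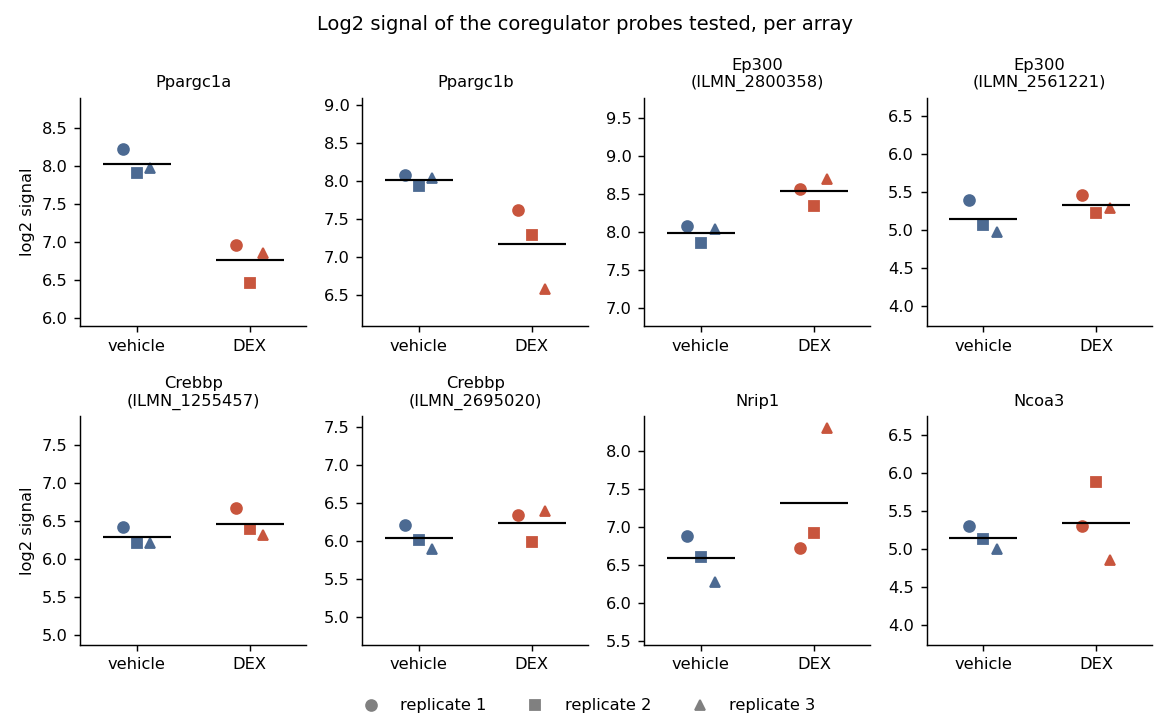
Log2 signal of the 8 tested coregulator probes on each of the 6 arrays, vehicle at left and DEX at right in each panel, with marker shape for the replicate number and a line for the group mean. The vertical axes span the same number of log2 units but start at different levels, since probes differ in brightness. The 3 DEX arrays lie below the 3 vehicle arrays for Ppargc1a and Ppargc1b and above them for Ep300 (ILMN_2800358), and the third DEX array stands apart for Nrip1.

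The sequence just upstream of a Ppargc1a start site is shown because this was the 1 coregulator gene past the threshold. The RefSeq table of GRCm38.p6 lists 1 start for it, and the 250 bases before that start are at chr5:51567726-51567975 on the minus strand. The annotated gene spans chr5:51454249-52115853, so the listed start lies inside the gene and is not its outermost one, and which start the measured transcript used is not known from these arrays. Capitals mark the bases that match TGACG, the core of a cAMP response element, on the opposite strand, 49 bases before the start.
Ppargc1a: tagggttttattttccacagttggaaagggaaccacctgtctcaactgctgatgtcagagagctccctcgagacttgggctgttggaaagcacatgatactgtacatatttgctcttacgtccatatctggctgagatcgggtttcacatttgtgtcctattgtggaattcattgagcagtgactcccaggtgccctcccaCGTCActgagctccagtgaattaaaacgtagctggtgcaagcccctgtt
Of 32851 promoters of the same length in the table, 17.8% hold TGACG on either strand. The full cAMP response element TGACGTCA had no match in this window and was found in 1.55% of all promoters. The shorter glucocorticoid receptor motif TGTTCT had no match here, and 16.1% of all promoters hold it. The palindromic glucocorticoid response element, AGAACA and TGTTCT with any 3 bases between them, had no match here and occurs in 3 of the 32851 promoters. These counts describe the letters of 1 window. They are not evidence on where a factor binds.

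The genes whose log2 signal most resembled that of Ppargc1a over the 6 arrays, by Pearson's r among 9143 other genes, were Pard6g (r = 0.999), Emg1 (r = 0.996) and Fkbpl (r = 0.996). The 6 arrays share the split into vehicle and DEX, and the correlations are given as a description. Pard6g, which encodes a cell polarity protein, fell by 1.09 on the log2 scale (adjusted p = 0.00353 from limma). The differences of Emg1 and Fkbpl were -0.40 each and did not pass (adjusted p = 0.120 and 0.116).

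Ppargc1b encodes PGC-1 beta, the close relative of PGC-1 alpha that also coactivates estrogen-related receptors and nuclear respiratory factor genes. Its bead signal was 377, 305 and 364 in vehicle and 275, 214 and 168 in DEX. All 3 DEX arrays were dimmer than all 3 vehicle arrays, as for Ppargc1a, but they were spread more widely. The log2 signal was 8.08, 7.93 and 8.05 in vehicle and 7.62, 7.30 and 6.59 in DEX, with a gap of 0.31 between the groups. The vehicle arrays had an SD of 0.08 and the DEX arrays an SD of 0.53, the third DEX array being the lowest.

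The log2 fold change of Ppargc1b was -0.85 (SE 0.24, 95% interval -1.39 to -0.31), 1.80-fold lower, with an unadjusted p of 0.00581 and an adjusted p of 0.0686 in limma. The numbered pairs differed by -0.46, -0.64 and -1.46, all in 1 direction and unequal in size. With the replicate block the adjusted p was 0.0291, and 4 of the 14 alternatives passed, over a range of 0.0151 to 0.241. Leaving out the third DEX array changed the log2 fold change to -0.56, and leaving out the first gave -1.08, which passed. Whether Ppargc1a and Ppargc1b differ in their response was not tested, and their 95% intervals overlap.

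**Figure D3:**
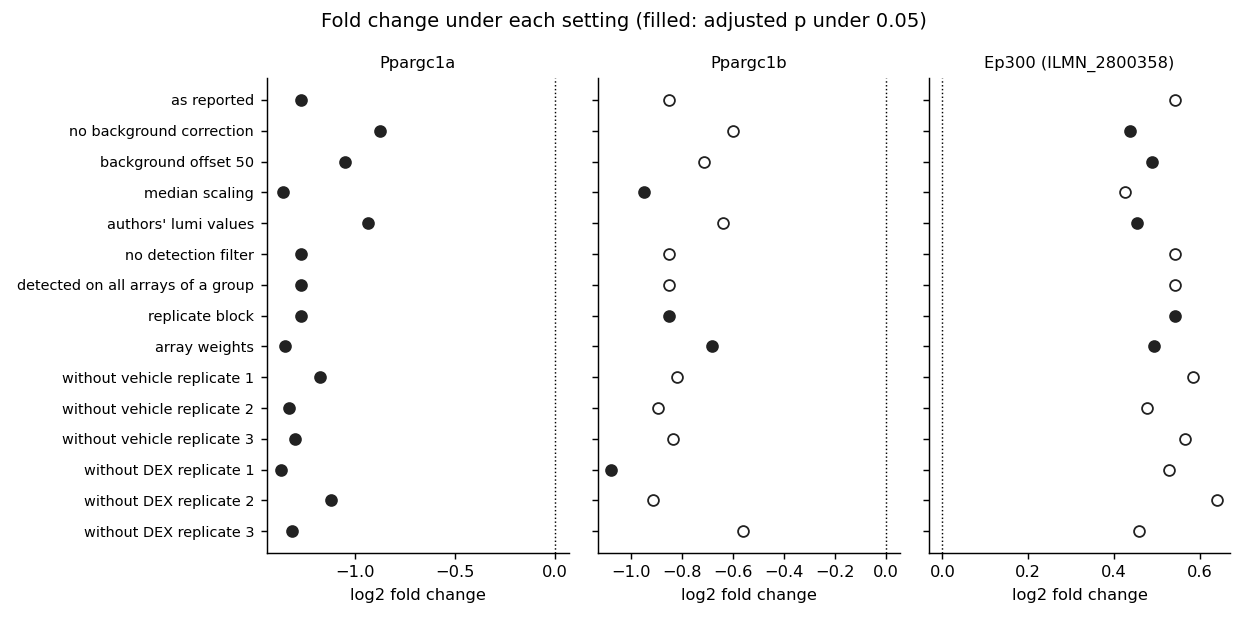
Log2 fold change of Ppargc1a, Ppargc1b and Ep300 (ILMN_2800358) as reported and under each of 14 alternative settings, with filled points for an adjusted p under 0.05. All points of Ppargc1a are filled, 4 alternatives of Ppargc1b and 5 of Ep300 are filled, and no point crosses 0.

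Ep300 and Crebbp encode the paralogous acetyltransferases p300 and CBP, which acetylate histones and are recruited by p160 coactivators and by many DNA-binding factors. Ep300's brightest probe, ILMN_2800358, gave bead signals of 374, 294 and 360.4 in vehicle and 464, 356 and 466 in DEX. These unnormalized signals overlap between groups, since the second DEX array was dimmer than 2 of the vehicle arrays. The second array of each group was the dimmest for this probe. The normalized log2 signal was 8.07, 7.86 and 8.03 in vehicle and 8.56, 8.33 and 8.69 in DEX, and on this scale the groups were 0.26 apart. The log2 fold change of 0.54 (SE 0.15, 95% interval 0.20 to 0.89), 1.46-fold, did not pass in limma (unadjusted p = 0.00604, adjusted p = 0.0700). The numbered pairs differed by 0.49, 0.48 and 0.66, close to each other in size. The adjusted p was 0.0346 with the replicate block, and 5 of 14 alternatives passed, between 0.0271 and 0.295.

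The second tested Ep300 probe, ILMN_2561221, was close to background and was detected on 5 arrays, all but the third vehicle array. Its log2 signal was 5.40, 5.07 and 4.98 in vehicle and 5.47, 5.23 and 5.30 in DEX, and the groups overlapped. Its log2 fold change was 0.18 (95% interval -0.18 to 0.54), and its adjusted p in limma was 0.584. The other 2 Ep300 probes were not tested, and 1 of their values, on the second DEX array, had a detection p under 0.05 (0.0449). The difference of Ep300 was thus measured well above background by 1 of its 4 probes.

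Crebbp had 2 tested probes. ILMN_1255457 gave log2 signals of 6.43, 6.22 and 6.22 in vehicle and 6.68, 6.40 and 6.32 in DEX. ILMN_2695020 gave 6.22, 6.01 and 5.89 in vehicle and 6.34, 5.99 and 6.40 in DEX. Both probes were detected on all 6 arrays and their groups overlapped. The log2 fold changes were 0.18 (95% interval -0.17 to 0.53) and 0.20 (-0.17 to 0.58), with adjusted p-values in limma of 0.564 and 0.550. The intervals reach 1.45-fold and 1.49-fold higher at their upper ends, so a rise of that size in Crebbp could not be told from no change with 3 arrays per group. The remaining Crebbp probe, ILMN_2746204, was detected on no array, with bead signals of 87.5 to 100.8, and was not tested. All 4 tested probes of the acetyltransferases had positive log2 fold changes, but they belong to only 2 genes on the same 6 arrays, and none passed.

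Nrip1 encodes RIP140, a corepressor of nuclear receptors that restrains oxidative genes in fat. Its probe gave bead signals of 205, 163 and 157 in vehicle and 184, 181 and 373 in DEX. By bead signal the first 2 DEX arrays lay within the vehicle range and the third was far above it. On the log2 scale the signal was 6.87, 6.60 and 6.28 in vehicle and 6.72, 6.91 and 8.30 in DEX, the second DEX array there lying just above the vehicle arrays. The numbered pairs did not go 1 way, with differences of -0.15, 0.31 and 2.02. The log2 fold change was 0.73 (SE 0.37, 95% interval -0.10 to 1.55), or 1.66-fold (0.935 to 2.94), with an adjusted p of 0.306 in limma and 0.230 with the replicate block. Without the third DEX array it was 0.23. That array was thus the highest of all 6 for Nrip1 and the lowest of all 6 for Ppargc1b, while for Ppargc1a it lay between the other DEX arrays.

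Of the p160 coactivators only Ncoa3 (SRC-3) could be tested. Its probe was dim and was detected on 4 of 6 arrays, the first and second of each group. The bead signal was 117, 105 and 108 in vehicle and 116, 126 and 101 in DEX. These values lie above the median bead signal of each array (91.9 to 96.8), by least on the third DEX array and by most on the second. The log2 signal was 5.30, 5.13 and 4.99 in vehicle and 5.31, 5.87 and 4.85 in DEX, so that the DEX arrays enclosed the vehicle arrays. The log2 fold change was 0.20 (95% interval -0.33 to 0.74, adjusted p = 0.692 in limma), and no alternative passed. It was -0.06 without the second DEX array, 0.45 without the third and 0.53 with array weights (adjusted p = 0.0775).

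Ncoa1 (SRC-1) had 1 probe, with bead signals of 84.2 to 96.3 and detection p-values of 0.214 to 0.644. Ncoa2 (GRIP1, a p160 protein that also serves as a corepressor of the glucocorticoid receptor at some sites) had 5 probes, with signals up to 104.2 and detection p-values of 0.0588 to 0.967. None of these 6 probes was detected on any array, which gives no measure of a change in either gene. Over all 10 untested coregulator probes, 1 of 60 values had a detection p under 0.05. A probe at background on these arrays does not show that its transcript was missing, since probes differ in how well they bind.

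**Figure D4:**
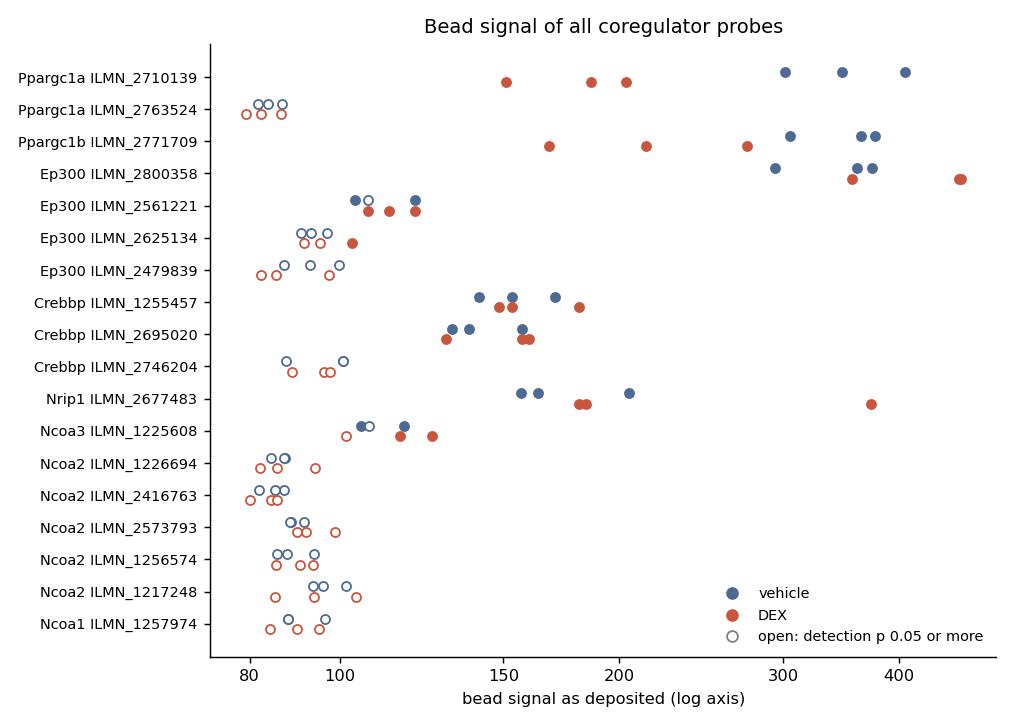
Bead signal as deposited, on a logarithmic axis in arbitrary units, for all 18 coregulator probes on the 6 arrays, with vehicle in blue and DEX in red. Open points have a detection p of 0.05 or more. The 10 untested probes lie between 79.2 and 104.2, and the levels of different probes cannot be set against each other.

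Genes that work beside the coregulators were counted in the same fit. Of 27 other coactivators and coactivator enzymes, 21 were tested, 1 was lower and none was higher, and the median log2 fold change was -0.005. The 1 that passed was Prmt1, the arginine methyltransferase that modifies histone H4 and also PGC-1 alpha, which fell 1.62-fold (log2 fold change -0.70, SE 0.14, adjusted p = 0.0186 in limma). It passed under 10 of 14 alternatives, with adjusted p-values up to 0.0819. Cited2, a partner of CBP and p300, was the brightest without a pass, at 0.46 on the log2 scale (adjusted p = 0.118). Ncoa4, known as a receptor coactivator and as the ferritin cargo receptor, had a log2 fold change of 0.78 that passed with the replicate block (adjusted p = 0.0380) and not without it (0.309).

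Among 17 subunits of corepressor complexes and other corepressors, 12 were tested, and 1 was higher and none lower (median -0.01). That gene was Tbl1xr1, which encodes the TBLR1 subunit of the NCoR complex that exchanges corepressors for coactivators. It rose 1.71-fold (log2 fold change 0.77, SE 0.16, adjusted p = 0.0167 in limma), 2 of its 3 probes passed, and 10 of 14 alternatives passed, with adjusted p-values up to 0.0757. For Hdac3, the deacetylase of the same complex, it was -0.10 (adjusted p = 0.741). Phb2, a prohibitin that represses estrogen receptors, was the brightest that did not pass, at -0.49.

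Of 21 nuclear receptors that these coregulators bind, 11 were tested, and 1 was higher and 1 lower, with a median of 0.05. Vdr, the vitamin D receptor, rose 5.48-fold (adjusted p = 4.26e-04 in limma, 2 of 3 probes). It rose from a dim level, a mean log2 signal of 5.42 in vehicle. The lowest detected log2 signals on the vehicle arrays were 4.97 to 5.05. Rxrg, a retinoid X receptor, fell 2.11-fold (adjusted p = 0.0279), was detected on 2 of 3 DEX arrays, and passed under 11 of 14 alternatives. Another retinoid X receptor, Rxra, had a log2 fold change of 0.65, which passed with the block (adjusted p = 0.0183) and not without it (0.112). Pparg and Esrra, known partners of PGC-1 alpha, did not pass, whereas Ppara and Esrrg did not pass the filter on dim probes and were not tested. For Pparg the log2 fold change was 0.10 (adjusted p = 0.735), and for Esrra, the estrogen-related receptor alpha, it was -0.52 (0.0939). Esrra passed under 3 of 14 alternatives. The glucocorticoid receptor gene itself, Nr3c1, differed by -0.21 on the log2 scale (adjusted p = 0.718).

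Upstream of Ppargc1a, 12 of 21 listed regulators were tested, and 2 were higher and none lower (median -0.01). Foxo1, a forkhead factor that can activate Ppargc1a in liver, rose 2.81-fold with both probes past the threshold (adjusted p = 4.54e-04 in limma). Sik2, a salt-inducible kinase that holds CREB coactivators in the cytoplasm, rose 1.81-fold (adjusted p = 0.0151) from a level near background, and passed under 9 of 14 alternatives with adjusted p-values up to 0.0686. Prkaca, the catalytic subunit of protein kinase A, did not pass, at -0.31 on the log2 scale (adjusted p = 0.343).

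Downstream, 21 of 24 PGC-1 partner factors and target genes, many but not all of them mitochondrial, were tested. Of these, 2 were higher and none lower (median -0.04). Pdk4, a kinase that turns off pyruvate dehydrogenase, rose 8.31-fold (adjusted p = 2.13e-05 in limma) and Lpin1, a phosphatidate phosphatase that also coactivates with PGC-1 alpha, rose 2.75-fold with both probes (7.60e-04). These 2 are known targets of PGC-1 proteins and are also known as glucocorticoid-responsive genes, and they changed in the opposite direction to Ppargc1a. What raised either gene was not tested. Genes of the mitochondrial machinery did not pass, such as Cox4i1, a subunit of cytochrome oxidase (log2 fold change -0.07, adjusted p = 0.823), and Tfam, the mitochondrial transcription factor (-0.29, 0.270). Of 12 brown fat genes, several of them known to be repressed by RIP140, 5 were tested and none passed (median -0.14). The brightest of them, Cox8b, differed by -0.18 on the log2 scale (adjusted p = 0.688), and Ucp1, the uncoupling protein, did not pass the filter on dim probes.

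**Figure D5:**
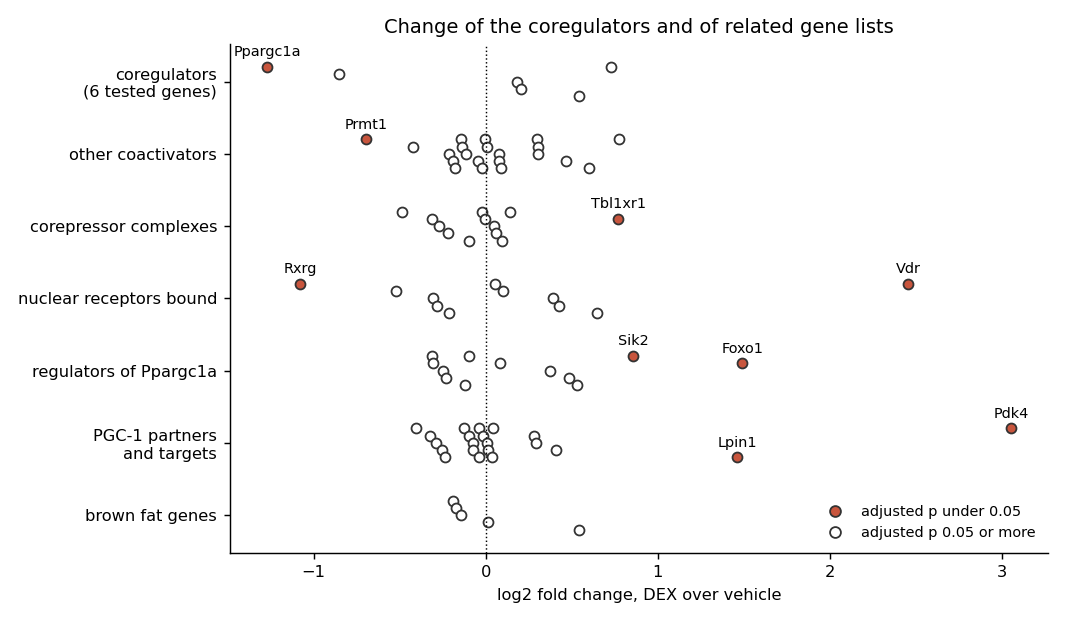
Log2 fold change of DEX over vehicle for the representative probe of each tested gene, by list, from the fit without a block. Filled points have an adjusted p under 0.05 and are named, 1 of 6 among the coregulators, and most of the other points lie within 0.5 of zero.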

How the data were processed

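Total RNA of differentiated 3T3-L1 cells, 3 vehicle and 3 DEX samples, was hybridized to MouseWG-6 BeadChip arrays. The authors deposited a mean bead signal (intensity, linear scale) per probe and array, neither background-corrected nor normalized, with a detection p-value against negative control beads. They also deposited intensity values pre-processed with lumi, used here as an alternative, whose 6 columns had nearly the same sorted values (within 0.319%), as quantile normalization gives. For lumi, the options chosen are not stated in the sources used.

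In limma 3.58.1 under R 4.3.3, bead signals were background-corrected (normexp, negative controls inferred from detection p-values, offset 16), quantile-normalized and log2-transformed. The probes tested, 16317 of 45281 (36.0%), had to be detected at p under 0.05 by 3 arrays or more. The two-sided moderated test of limma was used, and p-values were adjusted over the tested probes by Benjamini and Hochberg. The offset shrinks the folds of dim probes. Of all probes, 34885 carry 1 gene symbol, 18 several and 10378 none in the platform annotation used. A gene was judged by its tested probe with the highest mean signal. Intervals are 95% intervals from the fit, and the number of arrays limits the precision. Python 3.11.15 served for tables, motif counts and plots, with numpy 2.4.6, pandas 2.3.3, scipy 1.17.1 and matplotlib 3.10.9. Promoter sequences are those of RefSeq, GRCm38.p6.

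The coregulators, the gene lists and the tests were chosen with earlier results of these data known. All 18 coregulator probes are described, the tested ones singly. From each list the text names up to 3 genes that passed with the largest change and the brightest 1 that did not, and Fkbp5 and Tsc22d3 as controls. Ncoa4, Hdac3, Rxra, Esrra, Esrrg, Ppara, Nr3c1, Tfam, Adipoq, Cidec, Plin1, Dlk1, Pdgfra, Gata2 and Ucp1 were added after their values were seen.

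Replicate numbers come from the sample titles, which do not say that equal numbers belong together. When each array's deviations from its group's mean were correlated across groups, r was 0.25 to 0.44 for equal numbers and -0.37 to 0.10 for unequal ones. Within a group the deviations of a probe cancel out, so positive values at equal numbers push those at unequal numbers down. The contrast therefore does not by itself show that equal numbers belong together. The numbers were treated as pairs only in an alternative fit, with the replicate number as a block. Other alternatives were no background correction, an offset of 50, median scaling, the lumi values, no or another detection filter, array weights, and each array left out in turn. On simulated data with 200 changed probes among 16317, the test recovered 6% of the 1.5-fold, 58% of the 2-fold, 84% of the 3-fold and 98% of the 4-fold changes (50 each). Each simulated probe took its residual SD in the real fit as its true SD. Such SDs carry the noise of estimates from 6 arrays. The real fit also called more probes, 693 higher and 416 lower, which loosens the adjusted threshold. For these reasons the shares need not hold in the real fit. A planned count of receptor-binding motifs in the proteins was not run.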

Additional observations from a re-analysis of the deposited data

How the results depend on the processing

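Over the 14 alternative settings, Ppargc1a kept its direction and stayed past the threshold, and Nrip1, both Crebbp probes and the second Ep300 probe kept theirs and did not pass. The count of coregulator genes higher in DEX went from 0 to 1, each time through Ep300, with no background correction (log2 fold change 0.44), an offset of 50 (0.49), the lumi values (0.45), the replicate block (0.54) and array weights (0.49). The count of genes lower in DEX went from 1 to 2 through Ppargc1b with median scaling (-0.95), the replicate block (-0.85), array weights (-0.68) and without DEX replicate 1 (-1.08). The median log2 fold change of the 8 tested probes was 0.19, and 0.0885 with no background correction and 0.0990 with the lumi values. The log2 fold change of Ncoa3 turned to -0.0605 without DEX replicate 2, and Ncoa3 could not be tested when detection on all arrays of a group was required. With array weights its log2 fold change was 0.53 and those of Nrip1 and Crebbp (ILMN_2695020) 0.45 and 0.10. Median scaling moved the median of all tested probes from -0.04 to -0.13. The cause of these changes was not tested.

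Over all tested probes, 693 were higher and 416 lower. Lower probes numbered 667 with median scaling, 847 with the replicate block and 1375 with array weights, which also gave 1388 higher. Among the coregulators and the listed genes, the replicate block changed the calls of Ppargc1b, Ep300, Ncoa4, Rxra, Pdgfra and Gata2 and no others. With each array left out in turn, 0 coregulator genes were higher each time and 1 to 2 lower, and the probe median was 0.13 to 0.29, the highest without vehicle replicate 1. Log2 fold changes then ranged from -1.38 to -1.12 for Ppargc1a, -1.08 to -0.56 for Ppargc1b, 0.46 to 0.64 and 0.10 to 0.31 for the Ep300 probes, 0.08 to 0.25 and 0.13 to 0.33 for the Crebbp probes, 0.23 to 1.02 for Nrip1 (0.23 without DEX replicate 3) and -0.06 to 0.45 for Ncoa3. Higher probes ranged from 400 (without vehicle replicate 2) to 772 and lower probes from 131 (without vehicle replicate 2) to 516. Without vehicle replicates 1 and 3, in turn, 255 and 194 were lower, 458 were higher without vehicle replicate 3, and 208 were lower without DEX replicate 2. The second Ppargc1a probe, all probes of Ncoa1 and Ncoa2, and 3 probes of Crebbp and Ep300 were too close to background for a change to be measured.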
